A study of Mus musculus with 14 samples.

Results

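The chemokines of the CXC and CX3C families were followed through the arrays, with 9 genes chosen by name: *Cxcl1*, *Cxcl2*, *Cxcl5*, *Cxcl9*, *Cxcl10*, *Cxcl11*, *Cxcl12*, *Cxcl16* and *Cx3cl1*. Every non-control probe whose gene name in the scanner files was one of these was taken, which gave 12 probes of 41174, and 9 of the 27962 gene names. *Cxcl12*, *Cxcl16* and *Cx3cl1* had a pair of probes each, and the others had a single probe. Total RNA came from mouse embryonic fibroblasts that lack the endogenous NF-κB subunit p65, written *p65*(-/-), of the NIH 3T3 line, into which a construct was brought by lentivirus. The resulting lines were selected with blasticidin as pools of cells. They carried wild type p65, the triple mutant KTR, in which lysines of p65 that can be acetylated are arginines (K310/314/315R), the double mutant K314/315R, or the empty plasmid pTV. All cells were starved overnight. Each line then received mouse TNFα (30 ng/ml) during 3 h, and untreated wild type cells, here 0 h, were the control. Each group had 3 one-colour Agilent arrays with probes across the mouse genome, except K314/315R with 2, 14 in all.

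Chemokines are small secreted proteins that guide leukocytes along concentration gradients by binding G protein-coupled receptors. In the CXC family a single residue separates the first cysteines, and in the CX3C family 3 residues do. *Cxcl1*, *Cxcl2* and *Cxcl5* encode ligands of CXCR2 that draw neutrophils. *Cxcl9*, *Cxcl10* and *Cxcl11* encode the interferon-inducible ligands of CXCR3, which draw activated T cells. CXCL16 and CX3CL1 are made as transmembrane proteins with a chemokine domain on a stalk, are cut from the surface by ADAM proteases, and bind CXCR6 and CX3CR1. CXCL12, made constitutively by stromal cells, binds CXCR4 and the scavenger receptor CXCR7. TNFα, a cytokine released in inflammation, activates NF-κB, a dimer in which p65 carries a transactivation domain, and fibroblasts are a known source of chemokines after TNFα.

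The genes of the CXC ligands lie in clusters. In the RefSeq gene order of the mouse, *Cxcl3*, *Cxcl15*, *Cxcl1* and *Cxcl2* follow each other, with *Cxcl5*, *Ppbp* and *Pf4* beside one another in the same cluster, and *Cxcl9*, *Cxcl10* and *Cxcl11* form another group of neighbours, with *Art3* among them. RefSeq annotates *Cxcl11* as a transcribed pseudogene in the reference mouse strain. The RefSeq promoter table (GRCm38.p6) held an entry for 6 of the 9 genes, all except *Cxcl5*, *Cxcl11* and *Cxcl16*. The 250 bases before the transcript start are shown for a detected and an undetected gene of each cluster, 5′ to 3′ on the gene's strand, with matches to the motifs named after them in capitals.
Cxcl1 (chr5:90890995-90891244, plus strand): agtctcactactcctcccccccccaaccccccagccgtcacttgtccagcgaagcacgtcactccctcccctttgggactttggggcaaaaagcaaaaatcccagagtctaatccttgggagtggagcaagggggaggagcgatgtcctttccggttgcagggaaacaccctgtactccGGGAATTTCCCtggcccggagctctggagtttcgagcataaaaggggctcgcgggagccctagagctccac
Cxcl2 (chr5:90903649-90903898, plus strand): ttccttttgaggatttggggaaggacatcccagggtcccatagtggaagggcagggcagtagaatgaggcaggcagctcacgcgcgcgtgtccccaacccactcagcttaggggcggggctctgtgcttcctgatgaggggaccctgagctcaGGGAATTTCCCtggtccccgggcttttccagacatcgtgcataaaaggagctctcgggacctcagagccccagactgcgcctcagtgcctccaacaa
Cxcl10 (chr5:92348890-92349139, minus strand): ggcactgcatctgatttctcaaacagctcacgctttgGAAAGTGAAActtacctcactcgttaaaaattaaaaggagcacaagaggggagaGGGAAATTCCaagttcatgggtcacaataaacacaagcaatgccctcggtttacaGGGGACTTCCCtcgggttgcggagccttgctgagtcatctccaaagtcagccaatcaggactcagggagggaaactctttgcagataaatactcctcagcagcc
Cxcl9 (chr5:92328080-92328329, minus strand): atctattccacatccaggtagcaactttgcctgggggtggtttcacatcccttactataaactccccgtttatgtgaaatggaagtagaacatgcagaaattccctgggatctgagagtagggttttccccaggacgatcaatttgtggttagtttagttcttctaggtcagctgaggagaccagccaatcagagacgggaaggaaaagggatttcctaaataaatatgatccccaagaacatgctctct
The searches, on both strands, were for the NF-κB consensus (κB), the interferon-response core (GAAA, any 2 bases, GAAA) and the STAT core (TTC, any 3 bases, GAA). *Cxcl1* held the κB consensus as 2 overlapping matches between 71 and 61 bases before the start, and *Cxcl2* as 2 overlapping matches between 97 and 87 bases before it. *Cxcl10* held 3 κB matches, a pair that overlaps between 104 and 94 bases before the start and a single one between 159 and 150, and an interferon-response core between 213 and 204. The *Cxcl9*, *Cxcl12* and *Cx3cl1* windows held none of these letters. Among all 32851 promoter windows of 250 bases in the table, 7.25% held the κB consensus, 2.98% the interferon-response core and 7.02% the STAT core. A match describes the letters only.

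The libraries were of like quality, with 49.6% to 57.4% of probes well above background per array and correlations of 0.984 to 0.995 between arrays of a group over the tested probes. All 8 fibroblast markers were well above background on all 14 arrays. Of these, *Pdgfra* and *Pdgfrb* were called higher (3.41-fold and 3.97-fold) and *Thy1* lower (0.437-fold) in wild type than in pTV, and both mutants gave 2 called higher and 1 lower over pTV. Their part in the differences over pTV described below was not tested. Of 8 macrophage and leukocyte markers, *Cd14* passed on all arrays, *Csf1r* on 13 and *Cd68* on 6, whereas *Ptprc*, *Emr1*, *Itgam* and *Fcgr3* passed on none. The brighter *Rela* probe, which reads the gene of p65, lay at a log2 signal of 1.52 to 1.54 in wild type at 3 h, 0.79 to 1.54 in KTR, 1.54 to 1.87 in K314/315R, 1.00 to 1.34 in pTV and 0.97 to 1.04 in untreated wild type cells. At 3 h wild type lay above pTV without overlap on this probe and on the dimmer one (-2.07 to -1.88 against -2.84 to -2.31). KTR overlapped with pTV on the brighter probe only. Untreated wild type cells, which also differ from pTV in treatment, read no higher than pTV on either probe. These probes therefore do not check the labels, and the stretch of transcript they read is not known here. Slides 1 to 3 each held an array of every group except K314/315R, whose 2 arrays lay alone on slide 4, and were read with Feature Extraction 9.1.3.1 in place of 9.1.1.1, so slide, software version and mutant cannot be told apart there. Outlier-flagged spots were left out of all values below, and 1 to 326 spots per array carried a flag, the most on KTR replicates 2 and 3 (212 and 326).

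**Figure D1:**
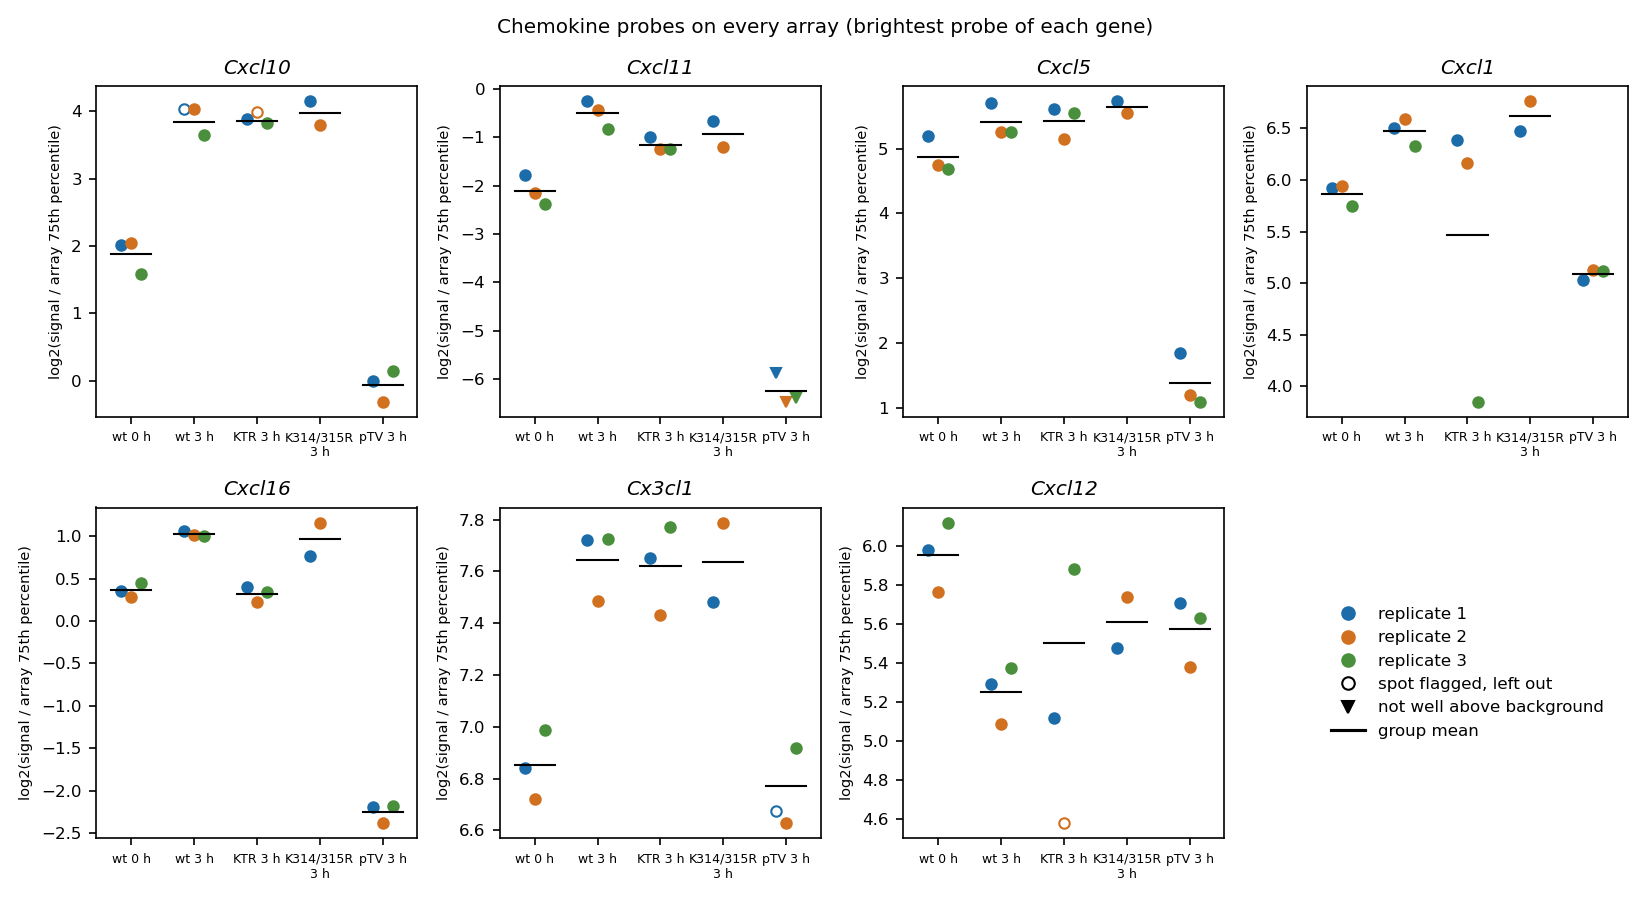
Signal of the brightest probe of each of the 7 detected chemokine genes on every array, as the log2 ratio to the 75th percentile of the array (vertical axis, own scale per gene), by group. Filled circles are arrays used, open circles are spots left out for their flag, triangles are spots not well above background and bars are group means. The pTV arrays lie far below the other groups for *Cxcl10*, *Cxcl11*, *Cxcl5* and *Cxcl16*, and 1 KTR array lies at 3.85 for *Cxcl1*.

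Of the 9 genes, 7 gave a signal well above background throughout at least 1 group and were tested, and *Cxcl2* and *Cxcl9* were well above background on 0 of 14 arrays. A gene counts here as called at an adjusted p under 0.05 (limma, Benjamini-Hochberg over all 22179 probes tested) together with a fold over 2 in a comparison with pTV, or a change over 1.8-fold in either direction in any other. Levels are log2 signals relative to the array's 75th percentile, and different probes are not compared with each other in level. With TNFα, 2 of the 7 were called higher in wild type cells (*Cxcl10* and *Cxcl11*). Over all 14876 genes tested 1.26% were called higher. In wild type over pTV at 3 h, 4 of the 7 were called higher (*Cxcl10*, *Cxcl11*, *Cxcl5* and *Cxcl16*), where 4.04% of all genes were called higher. The median log2 fold change of the 7 was 0.67 with TNFα and 3.28 over pTV, beside -0.05 and -0.02 over all genes tested. Because the RNA is of whole cultures, fewer cells that express a gene and less RNA per cell cannot be told apart.

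*Cxcl10*, the interferon-inducible ligand also known as IP-10, rose with TNFα and was far lower in the pTV line. Its log2 signal in unstimulated wild type cells was 2.01, 2.05 and 1.59 in replicates 1 to 3. After TNFα it was 4.03 and 3.66 in replicates 2 and 3. The spot of replicate 1 was flagged as non-uniform and left out; its own value, 4.04, lay in the same range. In pTV cells after TNFα it was 0.00059, -0.31 and 0.14, so the pTV arrays lay below even the unstimulated wild type arrays, and no groups overlapped. The increase with TNFα was 3.89-fold (95% interval 2.87 to 5.28, adjusted p = 0.000455), and wild type over pTV was 14.9-fold (11.01 to 20.2, adjusted p = 5.45e-07). Within slides 2 and 3, where both spots were used, the log2 difference was 1.98 and 2.07 with TNFα and 4.34 and 3.52 over pTV. With the flagged spots kept, both calls remained.

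*Cxcl11*, which encodes the CXCR3 ligand I-TAC, behaved alike in direction. Unstimulated wild type cells gave -1.78, -2.15 and -2.39, and TNFα-treated wild type cells gave -0.25, -0.44 and -0.82. All 3 treated arrays lay above all untreated ones. The pTV arrays, at -5.87, -6.47 and -6.40, were not well above background. *Cxcl11* rose 3.03-fold with TNFα (2.18 to 4.21, adjusted p = 0.0013). Its level in the wild type line was at least 19.1-fold higher than in pTV (adjusted p = 7.01e-09). This bound sets the wild type mean against the dimmest signal that still counted as well above background on each pTV array, and is used because the pTV signal itself has no measured level. Within slides 1 to 3 the TNFα difference on the log2 scale was 1.53, 1.71 and 1.57. Under another background correction (normexp, offset of 50) the TNFα difference was 1.42 on the log2 scale and missed the threshold (adjusted p = 0.594). The difference over pTV was then 2.42 (adjusted p = 0.0381), smaller than the bound given above. *Cxcl9*, the remaining CXCR3 ligand and a classical interferon-γ target, lay between -6.99 and -5.34 on all arrays, not well above background anywhere.

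Among the CXCR2 ligands, *Cxcl5* (also called LIX) had the largest measured ratio of wild type to pTV and was not called with TNFα. It was 5.19, 4.74 and 4.69 in untreated wild type cells and 5.70, 5.26 and 5.26 after TNFα. The treated arrays lay above the untreated ones without overlap, by 1.45-fold (1.04 to 2.01), which missed the threshold (adjusted p = 0.228) and the fold limit. Within slides 1 to 3 the log2 difference with TNFα was 0.51, 0.52 and 0.57. Across the alternatives the adjusted p ranged from 0.0194 to 0.699, and *Cxcl5* was called with TNFα in none. In pTV cells the signal was 1.85, 1.19 and 1.09. These arrays lay far below every array with p65. Wild type over pTV was 16.4-fold (11.8 to 22.7, adjusted p = 1.33e-07), and within slides 1 to 3 the log2 difference was 3.85, 4.07 and 4.17.

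*Cxcl1*, also known as KC, was present without p65. Its log2 signal was 5.92, 5.94 and 5.74 in untreated wild type cells, 6.50, 6.59 and 6.33 after TNFα, and 5.03, 5.13 and 5.11 in pTV cells. Those groups did not overlap. The fold over pTV was 2.60 (1.25 to 5.42, adjusted p = 0.0819) and that with TNFα 1.52 (0.731 to 3.16, adjusted p = 0.612). The spread estimated for this probe includes KTR replicate 3, which read 3.85 beside 6.39 and 6.17 on the other KTR arrays. Its spot carried no flag, with a mean pixel intensity of 14197 against 89910 and 108434 on the other KTR arrays and a pixel SD of 9.57% of the mean, within the 9.34% to 16.5% of all arrays. Within slides 1 to 3 the log2 difference over pTV was 1.47, 1.46 and 1.21. Without the KTR replicate 3 array the adjusted p was 8.19e-06 over pTV, where *Cxcl1* was then called, and 0.00972 with TNFα, still under the 1.8-fold limit. With the replicate number as a block, *Cxcl1* was also called over pTV (adjusted p = 0.0466), and with slide as a fixed block, on slides 1 to 3, it was not (adjusted p = 0.0575). *Cxcl2*, the close relative known as MIP-2 whose upstream κB letters are shown above, lay between -7.23 and -5.36 on all arrays and was not well above background on any.

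Of 7 other CXC ligand genes listed beside these, 6 were on the array and 2 were tested, and both were called over pTV. *Ppbp*, the neighbour of *Cxcl5* that encodes the platelet chemokine CXCL7, ranged from -0.23 to 0.25 in wild type at 3 h and from -3.29 to -2.26 in pTV, with a 6.80-fold higher level in wild type (adjusted p = 6.56e-06). It was not called with TNFα (0.912-fold, adjusted p = 0.861). *Cxcl3*, a CXCR2 ligand, ranged from -2.48 to -2.24 in wild type at 3 h and from -6.95 to -3.56 in pTV, where 1 of 3 arrays was well above background, so its fold has no fixed value. Within slides 1 to 3 the log2 difference was 4.71, 4.50 and 1.08, the last against the pTV array well above background, and the adjusted p was 0.00368 with all arrays and 7.1e-08 to 0.0194 without one of the pTV arrays. Its 3.33-fold difference with TNFα missed the threshold (adjusted p = 0.192), but passed the fold limit at an unadjusted p under 0.05. The untreated wild type arrays, at -4.49 to -3.71, were all well above background and lay below all treated ones. The spread estimated for this probe includes the pTV arrays. *Pf4*, *Cxcl13*, *Cxcl14* and *Cxcl15* were well above background on no array.

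Of the transmembrane chemokines, *Cxcl16* was called over pTV and *Cx3cl1* was not, and the difference between them was not tested. *Cxcl16*, whose product also acts as a scavenger receptor, gave 0.35, 0.29 and 0.45 in untreated wild type cells, 1.07, 1.01 and 1.01 after TNFα, and -2.19, -2.39 and -2.18 in pTV cells. No groups overlapped, and the pTV arrays were the lowest. Wild type over pTV was 9.72-fold (8.23 to 11.5, adjusted p = 2.26e-09), and the dimmer probe gave 7.48-fold (adjusted p = 2.55e-08). Within slides 1 to 3 the log2 difference over pTV was 3.26, 3.40 and 3.18, and under normexp the fitted difference was 2.48 (adjusted p = 0.000112). With TNFα the brighter probe differed by 1.59-fold (1.35 to 1.88, adjusted p = 0.00447), under the fold limit, while the dimmer probe rose 2.24-fold (1.84 to 2.72, adjusted p = 0.000328) and passed it.

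*Cx3cl1*, which encodes fractalkine, was well above background on all arrays and differed by less between groups. Its brighter probe gave 6.84, 6.72 and 6.99 in untreated wild type cells and 7.72, 7.49 and 7.73 after TNFα. In pTV cells it gave 6.63 and 6.92, with the flagged spot of replicate 1 at 6.67 left out. The treated wild type arrays lay above both other groups, and the pTV arrays overlapped with the untreated wild type arrays. The ratio was 1.73-fold with TNFα (1.41 to 2.13, adjusted p = 0.00734) and 1.83-fold over pTV (1.45 to 2.31, adjusted p = 0.00233), in both cases under the fold limit. The probes disagreed over pTV: the dimmer one gave 1.76-fold with TNFα (adjusted p = 0.014) but 1.10-fold over pTV, with overlapping arrays (adjusted p = 0.698).

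*Cxcl12*, the constitutive stromal chemokine SDF-1, was the single tested member whose mean was lower after TNFα and lower in wild type than in pTV. It gave 5.98, 5.76 and 6.12 in untreated wild type cells, 5.29, 5.09 and 5.38 after TNFα, and 5.71, 5.38 and 5.63 in pTV cells. The treated wild type arrays lay below all untreated ones and just below the pTV arrays, the nearest of which shared a rounded value with them. The ratio with TNFα was 0.614-fold (0.461 to 0.818, adjusted p = 0.0622) and that over pTV 0.800-fold (0.601 to 1.07, adjusted p = 0.323), neither past the threshold. The dimmer probe gave 0.667-fold with TNFα (adjusted p = 0.0887), and 0.850-fold over pTV with overlapping arrays (adjusted p = 0.457). Across the 5 groups the order of its means was untreated wild type, K314/315R, pTV, KTR and treated wild type, and K314/315R, pTV and KTR overlapped with each other, and KTR with both ends.

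**Figure D2:**
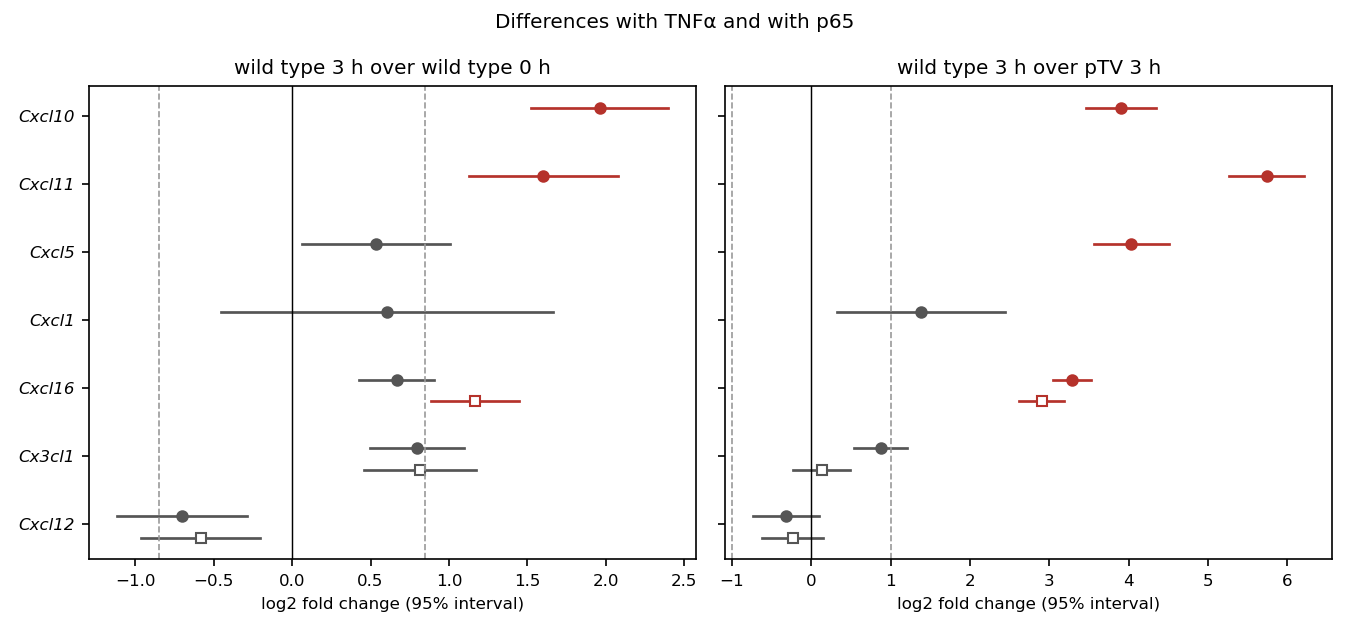
Log2 fold change with its 95% interval (horizontal axis) for each tested chemokine gene, with TNFα in wild type cells (left) and in wild type over pTV at 3 h (right). Filled circles are the brightest probe and open squares the second probe, red marks the called probes, and dashed lines are the fold limits. *Cxcl11* over pTV is the fitted value against a signal not well above background, of which at least 19.1-fold is measured.

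The lysine mutants were then set against wild type p65 at 3 h. In limma, 0 of the 7 genes were called in KTR over wild type, where 0.222% of all genes were called in either direction, and 0 in K314/315R over wild type, where 1.16% were. At an unadjusted p under 0.05, *Cxcl11* and *Cxcl16* differed in KTR, both under the fold limit, and 0 genes differed in K314/315R. By this p alone, 6 of the 7 differed with TNFα and 6 in wild type over pTV. The share of all genes under this p is not given here, so these counts have no baseline. Whether the counts differ between the mutants was not tested. The median log2 fold change of the 7 was -0.03 in KTR and 0.13 in K314/315R, beside 0.06 and 0.03 over all genes tested.

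*Cxcl10* had a log2 signal of 3.89 and 3.82 in KTR replicates 1 and 3, with the flagged spot of replicate 2 left out at 3.99, and 4.15 and 3.79 in K314/315R. The range of these arrays overlapped with that of wild type. The ratio to wild type was 1.01 in KTR (0.723 to 1.41, adjusted p = 0.991) and 1.10 in K314/315R (0.785 to 1.53, adjusted p = 0.813), so a difference within these intervals was not detectable.

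*Cxcl16* gave 0.40, 0.22 and 0.35 in KTR, below all wild type arrays at 3 h and overlapping with the untreated ones. Within slides 1 to 3 the log2 difference from wild type was -0.67, -0.79 and -0.66. The ratio was 0.613 (0.519 to 0.724, adjusted p = 0.0203), which passed the p threshold and not the 1.8-fold limit. The p threshold was not passed under every alternative. Across them, leaving out each array included, the log2 difference lay between -0.75 and -0.46, with adjusted p from 0.00179 to 0.651. The dimmer probe gave 0.68 (0.56 to 0.826, adjusted p = 0.136). K314/315R gave 0.77 and 1.16, on either side of wild type, with a ratio of 0.958 (0.796 to 1.15, adjusted p = 0.849). In the direct comparison of KTR with K314/315R the ratio was 0.640 (0.531 to 0.770, adjusted p = 0.0153), again without passing the fold limit, and 0.761 with the dimmer probe (adjusted p = 0.136). Across the alternatives this log2 difference lay between -0.84 and -0.39, and its adjusted p did not stay under 0.05.

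*Cxcl11* gave -0.99, -1.25 and -1.24 in KTR, all below the wild type arrays, and -0.66 and -1.21 in K314/315R, which overlapped with them. The ratios were 0.635 in KTR (0.457 to 0.882, adjusted p = 0.346) and 0.742 in K314/315R (0.514 to 1.07, adjusted p = 0.397). Neither passed the threshold. Within slides 1 to 3 the log2 difference in KTR was -0.74, -0.81 and -0.42, and with the replicate number as a block its adjusted p was 0.0208, still under the 1.8-fold limit.

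*Cxcl5* gave 5.61, 5.15 and 5.54 in KTR and 5.74 and 5.55 in K314/315R, overlapping with wild type, with ratios of 1.02 (0.732 to 1.41) and 1.18 (0.814 to 1.70). *Cx3cl1* gave 7.65, 7.43 and 7.77 in KTR and 7.48 and 7.79 in K314/315R, with ratios of 0.982 (0.798 to 1.21) and 0.994 (0.788 to 1.25). *Cxcl1* gave 6.47 and 6.77 in K314/315R, a ratio of 1.11 (0.488 to 2.51). Its ratio in KTR was 0.499 (0.240 to 1.04, adjusted p = 0.569), and without KTR replicate 3 the log2 difference was -0.19 (adjusted p = 0.746). *Cxcl12* gave 5.12 and 5.88 in KTR replicates 1 and 3, with replicate 2 flagged and left out at 4.58, and 5.48 and 5.74 in K314/315R. Its K314/315R arrays lay above the wild type arrays, at a ratio of 1.28 (0.929 to 1.77, adjusted p = 0.421), and its KTR ratio was 1.19 (0.863 to 1.64, adjusted p = 0.780). The dimmer probe, with all KTR spots used, gave 0.960 in KTR (adjusted p = 0.948).

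**Figure D3:**
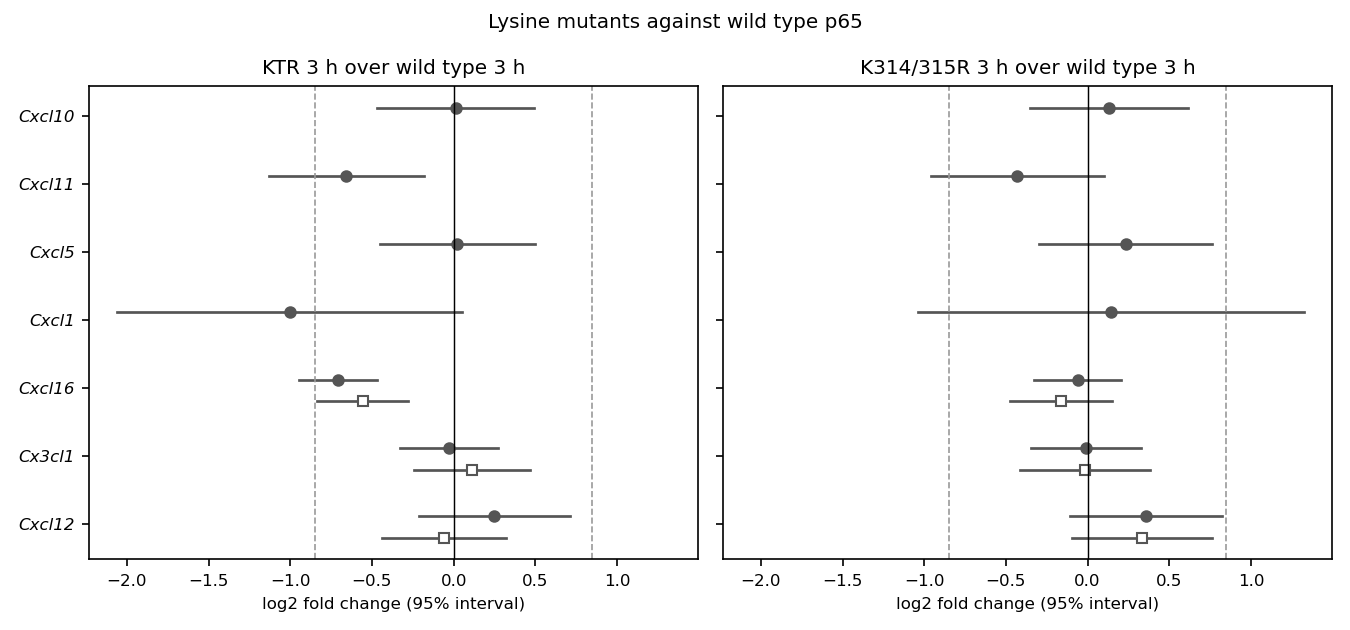
Log2 fold change with its 95% interval (horizontal axis, the same in both panels) of each tested chemokine gene in KTR (left) and K314/315R (right) over wild type p65 at 3 h. Symbols are as in the plot of TNFα and p65 differences. No probe is called, and the *Cxcl16* probes in KTR and the wide *Cxcl1* interval stand out.

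Both mutants were also compared with pTV, which uses the same pTV arrays as the wild type comparison. In KTR 4 of the 7 genes were called higher, where 3.81% of all genes were, and in K314/315R 4 of the 7, where 4.76% were. These were *Cxcl10*, *Cxcl11*, *Cxcl5* and *Cxcl16* in each mutant. *Cxcl10* was 15.1-fold higher than in pTV in KTR and 16.4-fold in K314/315R. *Cxcl5* was 16.6-fold and 19.2-fold higher. *Cxcl11* was at least 12.1-fold and at least 14.2-fold higher, but under normexp these log2 differences were 1.85 and 1.95, below those bounds and not called (adjusted p = 0.128 and 0.136). *Cxcl16* was 5.95-fold and 9.31-fold higher, the values that differ most between the mutants among the 4 called members, and its direct comparison is given above. *Cxcl1* was 1.299-fold (adjusted p = 0.677) and 2.88-fold (adjusted p = 0.0571), and without KTR replicate 3 both were called (adjusted p = 9.24e-05 and 1.24e-05). In K314/315R it was also called without KTR replicate 1 and without KTR replicate 2. *Cx3cl1* was 1.798-fold and 1.82-fold, under the fold limit, and *Cxcl12* 0.952-fold and 1.03-fold. *Ppbp* was called in both mutants at 8.31-fold and 10.2-fold. *Cxcl3* was called in both with no fixed fold, since 2 of the 3 pTV arrays were not well above background, and its call in K314/315R was lost without pTV replicate 2 (adjusted p = 0.0501) or K314/315R replicate 1 (0.0674) or 2 (0.0659). Summed signals of the other cell type markers also differed between these groups: macrophage and leukocyte markers summed to 2.00 to 2.17 in wild type at 3 h and 2.26 to 3.18 in pTV, in units of the 75th percentile, of which *Cd14* alone made 87.5% to 95.7% on all arrays, and epithelial markers to 0.683 to 0.734 and 1.06 to 1.29, higher in pTV where the chemokines were lower. In the mutants, where the chemokines were high, the macrophage and leukocyte markers summed to 2.29 to 3.85 in KTR and 2.63 to 3.01 in K314/315R, which overlap with pTV, and the epithelial markers to 0.791 to 0.978 and 0.720 to 0.747, below pTV. Of 5 epithelial markers *Krt8* and *Krt19* were well above background on all 14 arrays and *Cdh1* and *Tacstd1* on none. *Krt18* was well above background on all 3 pTV arrays, 1 of 3 wild type arrays at 3 h, 0 of 3 in KTR and 0 of 2 in K314/315R. It was called lower in wild type than in pTV (log2 differences of -3.40, -2.47 and -1.71 within slides 1 to 3, adjusted p = 0.000962). It was also called lower in both mutants than in pTV. Most of these signals below pTV were not well above background, so the differences have no fixed size. Of 5 endothelial markers *Vwf* passed on 1 array and the others on none. The part of all these markers in the result was not tested.

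In the direct comparison of KTR with K314/315R, limma called 0 of the 7 genes, where 2.42% of all genes were called in either direction. At an unadjusted p under 0.05, *Cxcl16* alone differed. By the brightest probe all 7 means were lower in KTR, with a median log2 difference of -0.21 beside 0.02 over all genes. The second probes of *Cxcl12* and *Cxcl16* were lower too, and that of *Cx3cl1* was higher (log2 difference 0.13). The 7 genes share the same arrays, and slide and software version cannot be told apart from the mutant here. For *Cxcl1* the ratio of 0.451 (0.199 to 1.02, adjusted p = 0.246) again rested on KTR replicate 3. Without it the log2 difference was -0.34 (adjusted p = 0.176).

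**Figure D4:**
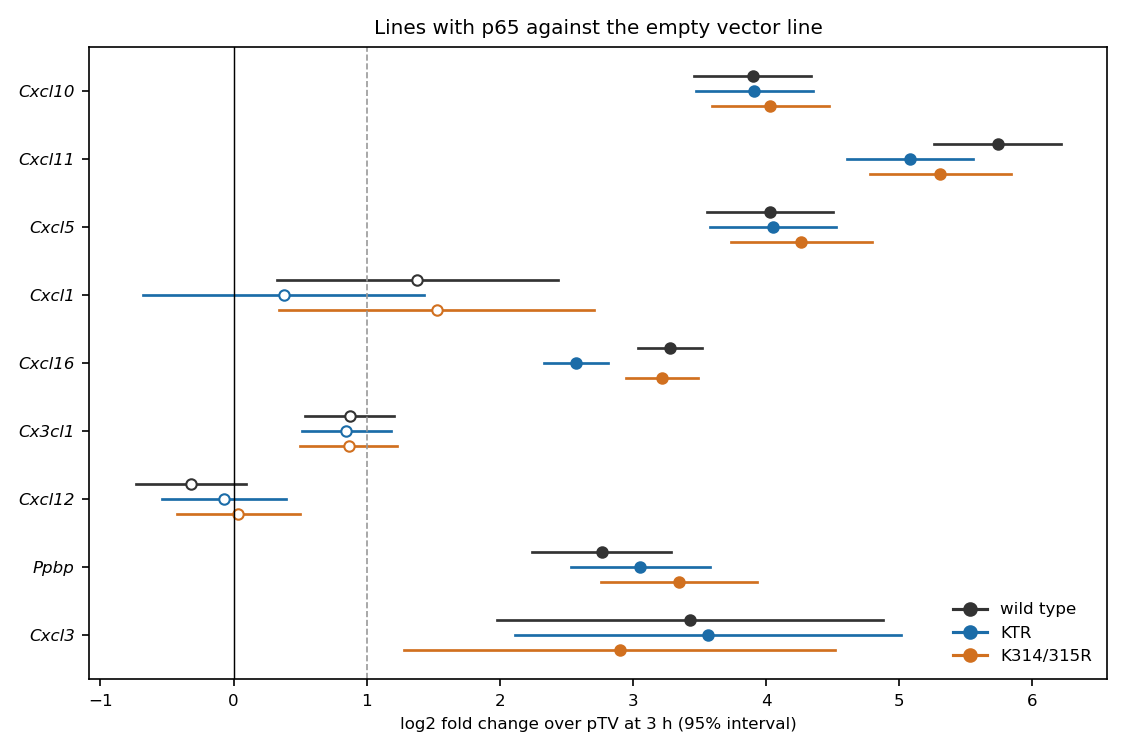
Log2 fold change over pTV at 3 h with its 95% interval (horizontal axis) for the 7 tested chemokine genes and for *Ppbp* and *Cxcl3*, in lines with wild type p65, KTR and K314/315R. Filled points are called, open points are not, and the dashed line is the limit of 2-fold. *Cxcl10*, *Cxcl11*, *Cxcl5*, *Cxcl16*, *Ppbp* and *Cxcl3* are called in each line, and *Cxcl16* lies lowest in KTR. The values of *Cxcl11* and *Cxcl3* are fitted against pTV arrays of which none and 1, respectively, were well above background.

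Few receptors of these ligands were detected. Of 9 receptor genes on the array 2 were tested, and limma called 0 in any of the 7 comparisons. *Cxcr7*, on the array as *Cmkor1*, encodes the scavenger receptor for CXCL12 and lay between 3.09 and 3.29 in wild type at 3 h and 3.56 and 3.69 in pTV, a ratio of 0.725 (adjusted p = 0.0163) under the fold limit. *Cxcr6*, the receptor of CXCL16, had a ratio of 0.379 with TNFα, past the fold limit at an unadjusted p under 0.05 and not after adjustment (adjusted p = 0.0834). *Cxcr4*, the signalling receptor of CXCL12, was well above background on 1 of 14 arrays. Of 3 proteases that cut these chemokines, 2 were tested and 0 were called, also at an unadjusted p under 0.05 with the fold limit. *Adam17*, which sheds CX3CL1 and CXCL16, had a 1.66-fold higher level in wild type than pTV cells (adjusted p = 0.000402), under the fold limit.

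Of 13 genes of interferon signalling, the pathway that acts on *Cxcl9*, *Cxcl10* and *Cxcl11*, 12 were tested. With TNFα 2 were called higher, where 1.26% of all genes were, the kinase gene *Jak2* (2.10-fold, adjusted p = 0.000561) and the transcription factor gene *Irf1* (1.83-fold, adjusted p = 0.000916). Over pTV 9 were called higher in wild type, where 4.04% of all genes were, among them the transcription factor genes *Irf1* (6.01-fold, adjusted p = 2.1e-08) and *Irf9* (4.25-fold, adjusted p = 7.11e-06), and the receptor gene *Ifnar2* (2.15-fold, adjusted p = 5.05e-05). *Irf7*, another transcription factor gene, was called too, with log2 differences of 1.98, 4.79 and 2.83 within slides 1 to 3 and with 2 of 3 pTV arrays passing the background limit. In each mutant 9 were called over pTV as well, where 3.81% of all genes were in KTR and 4.76% in K314/315R. *Ifngr1*, *Ifngr2* and *Tyk2* lay near the fold limit, and their calls changed when single arrays were left out. Against wild type, 0 were called in KTR and 0 in K314/315R by limma, and also 0 at an unadjusted p under 0.05 with the fold limit. *Ifnb1*, the gene of interferon-β, was well above background on no array.

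Across arrays, the genes whose log2 signal was most like that of a member by Pearson correlation, among 14380 gene names, were *Tnfaip3*, a feedback inhibitor of NF-κB, and *Bid* for *Cxcl10* (both 0.993, 12 arrays). They were *Parp14* and *Psmb10*, an immunoproteasome subunit gene, for *Cxcl11* (both 0.995, 14 arrays), and *Rasgef1b* (0.994) and *Ch25h* (0.993), which encodes cholesterol 25-hydroxylase, for *Cxcl5* (14 arrays). For *Cxcl16* the first was its RefSeq neighbour *Zmynd15* (0.995, 14 arrays), a name that RefSeq also lists among the synonyms of *Cxcl16*. For *Cx3cl1* they were *2610034N15Rik* (0.987) and *Arhgef3* (0.980, 13 arrays), for *Cxcl1* *Tbc1d2b* (0.938) and *Trim47* (0.933, 14 arrays), and for *Cxcl12* *Rab3a* (0.962) and *Gpr173* (0.927, 13 arrays). Among the members, *Cxcl5*, *Cxcl10*, *Cxcl11* and *Cxcl16* correlated at 0.905 to 0.986 with each other, and *Cxcl12* at -0.439 to -0.066 with the rest. These arrays share slides and fall into pTV and non-pTV arrays, so the correlations are descriptions.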

How the data were processed

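RNA of 14 cultures was measured on Agilent one-colour arrays. The authors deposited, for every array, the Feature Extraction (9.1 per the labels) output, from which the background-corrected intensity of each spot was used, and normalized intensities, which equal the scanner intensity times a factor for each array (0.837 to 1.20). Here spots flagged as outliers were left out, spots of a probe were averaged, values were scaled to the 75th percentile of their array before taking log2. The software corrects intensities for background, so values near background are uncertain. Tests covered the 22179 of 41174 probes whose signal was well above background throughout 1 or more groups.

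All 14 arrays entered 1 limma fit (3.58.1, R 4.3.3, with data.table version 1.17.8), two-sided, and p was adjusted by the Benjamini-Hochberg method across the tested probes. The study's thresholds were used: 2-fold over pTV, and 1.8-fold in either direction otherwise. The brightest probe stood for a gene. The sources name Rosetta Resolver for the study's own analysis, which was not repeated. Promoters came from RefSeq, searched in Python 3.11.15, and figures were drawn with matplotlib 3.10.9. The members, lists and tests were chosen with earlier results of these data known. Alternatives were other background corrections, normalizations, filters, sample sets, blocks, the second probe and leaving out each array. The scripts' tests were checked on simulated data. Replicate numbers equal slides on slides 1 to 3, where same-number arrays deviated together (18 pairs, r = 0.308 to 0.613, other pairs -0.510 to 0.0954), so there they pair the arrays; for K314/315R (8 pairs, -0.101 to 0.411) this was not shown. The number of arrays limits the precision, and p-values measure the spread between replicates, whose RNA was isolated on different days. The sources do not state whether the replicates of a line came from separate pools of cells. Differences between lines can therefore reflect the construct or the pool, which was not tested.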

Additional observations from a re-analysis of the deposited data

How the results depend on the processing

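The counts of called chemokine genes stayed within 1.5 times under the alternatives run, with 1 exception: with TNFα, 1 gene was called instead of 2 under normexp, and 1 when every array had to be well above background, where *Cxcl11* was not tested. Leaving out each array gave 2 to 3 called genes with TNFα, 4 to 5 over pTV in wild type, KTR and K314/315R, and 0 in each mutant over wild type and between the mutants. The replicate block changed the call of *Cxcl1* over pTV (1.38 on the log2 scale, adjusted p = 0.0466) and no other call, slide as a random block did the same (adjusted p = 0.0339), and slide as a fixed block did not (adjusted p = 0.0575). With the arrays of the compared groups only, *Cxcl1* was called over pTV in wild type (adjusted p = 0.000391) and K314/315R (0.00214). Under normexp *Cxcl11* was no longer called in KTR (1.85, adjusted p = 0.128) and K314/315R (1.95, adjusted p = 0.136) over pTV. The normexp run used an offset of 50, and the pTV spots of *Cxcl11* had intensities of 11.9 to 21.2. The cause was not tested. With TNFα the adjusted p of *Cx3cl1*, *Cxcl12* and *Cxcl16* reached 0.594 across the alternatives, as did that of *Cxcl11*. Leaving out pTV replicate 3, the log2 fold change of *Cx3cl1* over pTV was 1.02 in wild type and 1.01 in K314/315R, and both were called. *Cx3cl1* was called with TNFα under quantile normalization (0.85, adjusted p = 0.00255), without wild type 3 h replicate 2 and without wild type 0 h replicate 3. Without K314/315R replicate 1, which leaves 1 array in that group, its fold over pTV in K314/315R was past the 2-fold limit. Slide as a fixed block gave no K314/315R value.

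The remaining sign changes, as log2 values, were of differences that were not called. Of these, *Cxcl1* in KTR over pTV was called without KTR replicate 3 (1.19). For KTR over wild type, *Cxcl10* became -0.050 with flagged spots kept, -0.026 under quantile normalization, -0.051 in the authors' table, -0.055 with the replicate block, -0.011 with slide fixed and -0.0013 with slide random. *Cxcl12* became -0.10 with flagged spots kept and in the authors' table, and -0.058 with the second probe. *Cxcl5* became -0.020, -0.017 and -0.021 with flagged spots kept, quantile normalization and the authors' table. *Cx3cl1* became 0.35 under normexp and 0.11 with the second probe. For K314/315R over wild type, *Cx3cl1* became 0.21 under normexp, 0.026 in the authors' table and 0.058 with the replicate block, *Cxcl1* -0.088 with the replicate block and *Cxcl16* 0.15 under normexp. *Cxcl12* in K314/315R over pTV became -0.023 under normexp and -0.048 under quantile normalization. For KTR over K314/315R, *Cx3cl1* became 0.14 under normexp and 0.13 with the second probe. Leaving out each array, values for KTR over wild type ranged from -0.10 to 0.068 for *Cx3cl1*, -0.17 to 0.20 for *Cxcl10*, -0.13 to 0.63 for *Cxcl12* and -0.063 to 0.17 for *Cxcl5*. For K314/315R over wild type they ranged from -0.16 to 0.14 for *Cx3cl1*, -0.0017 to 0.29 for *Cxcl1*, -0.055 to 0.32 for *Cxcl10* and -0.26 to 0.13 for *Cxcl16*. Over pTV they ranged in KTR from -0.083 to 1.19 for *Cxcl1* and -0.45 to 0.31 for *Cxcl12*, and in K314/315R from -0.096 to 0.17 for *Cxcl12*. Between the mutants they ranged from -0.17 to 0.14 for *Cx3cl1*, -0.30 to 0.062 for *Cxcl10*, -0.50 to 0.046 for *Cxcl11* and -0.49 to 0.27 for *Cxcl12*.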
